A study of Mus musculus with 12 samples.

Results

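The expression of 7 intestinal stem cell and Wnt pathway genes (Wnt3, Lgr5, Axin2, Ascl2, Sox9, Olfm4 and Smoc2) was examined in proximal ileal epithelium of mice given the dioxin TCDD (2,3,7,8-tetrachlorodibenzodioxin), a persistent ligand of the aryl hydrocarbon receptor (AhR). The 7 genes were chosen by name, through the GENCODE M21 symbols of the Ensembl identifiers, from the 46078 genes listed in the count files. All 7 passed the filter on low counts, which left 15823 genes to be tested. Wild-type male C57BL/6 mice received sesame oil vehicle or 3, 10 or 30 µg/kg TCDD by oral gavage at 4-day intervals, with 7 administrations from 28 days of age, and tissue was taken at 56 days of age. RNA from epithelial scrapings was sequenced in 12 libraries, 3 for each of the 4 groups. Replicate numbers below are names given in accession order, because the labels give none. The series describes the libraries as biological replicates but ties none to a single animal, so p-values measure the spread between these libraries.

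The epithelium of the small intestine is renewed from stem cells at the base of the crypts. Wnt ligands bind Frizzled and LRP receptors on these cells, which stops the destruction complex from degrading β-catenin, and β-catenin then activates target genes together with TCF/LEF factors. R-spondins that bind LGR receptors strengthen the signal, and in the mouse small intestine Paneth cells, which lie between the stem cells and secrete antimicrobial peptides, are an epithelial source of WNT3.

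Promoter sequences are shown for the member that passed the test at 30 µg/kg (Wnt3) and for both members whose window held a core of the dioxin response element, the sequence that the ligand-bound AhR recognises (Olfm4 and Ascl2). RefSeq promoter windows of mouse build GRCm38.p6, which run from 250 bases before the annotated start to 50 bases after it, were at hand for 4 of the 7 genes, namely Wnt3, Axin2, Ascl2 and Olfm4. The cores searched on both strands were GCGTG (dioxin response element) and CTTTGA (TCF/LEF). Bases that belong to an exon of the same gene in GENCODE M21 were left out of the printed part, and capitals mark GCGTG or its reverse complement CACGC.
Wnt3: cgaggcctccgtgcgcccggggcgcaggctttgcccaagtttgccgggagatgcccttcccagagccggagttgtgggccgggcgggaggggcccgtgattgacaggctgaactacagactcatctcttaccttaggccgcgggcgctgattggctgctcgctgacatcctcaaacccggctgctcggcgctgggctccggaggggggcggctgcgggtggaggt
Olfm4: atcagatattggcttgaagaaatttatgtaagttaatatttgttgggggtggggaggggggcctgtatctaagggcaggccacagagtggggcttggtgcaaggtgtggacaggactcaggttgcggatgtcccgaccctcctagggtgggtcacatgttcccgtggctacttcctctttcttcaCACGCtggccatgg
Ascl2: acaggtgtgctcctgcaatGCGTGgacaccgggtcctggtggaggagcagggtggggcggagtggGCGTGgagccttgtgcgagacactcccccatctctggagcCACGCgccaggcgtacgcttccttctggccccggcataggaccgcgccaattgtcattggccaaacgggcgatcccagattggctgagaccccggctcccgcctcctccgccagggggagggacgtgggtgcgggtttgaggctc
The Wnt3 sequence is chr11:103773925-103774149 on the plus strand and lies directly upstream of the GENCODE gene. The Olfm4 sequence is chr14:80000052-80000250 on the plus strand, inside the GENCODE gene body and outside its exons, because the RefSeq start lies downstream of the GENCODE start. The Ascl2 sequence is chr7:142969265-142969514 on the minus strand, upstream of the gene. The Olfm4 window held 1 dioxin response element core, on the reverse strand 65 bases before the start, and the Ascl2 window held 3, at 231, 185 and 145 bases before the start. The Wnt3 and Axin2 windows held none, and no window of the 4 held the TCF/LEF core. Of 32851 windows of the same length, 32.4% held a dioxin response element core, 11.1% held 2 or more, and 16% held the TCF/LEF core. Matches of this kind are thus common and only describe the letters. For comparison, the windows of the AhR targets Cyp1a1, Cyp1b1, Ahrr and Tiparp each held at least 1 dioxin response element core.

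Gene counts summed to between 11695887 and 22180274 per library, and the floor of 3 counts corresponded to 0.139 to 0.267 CPM (counts relative to the TMM-scaled library size). Cyp1a1, the cytochrome P450 that serves as the usual readout of AhR activation, had 19.0 to 27.5 CPM in vehicle, 22.2 to 141 CPM at 3 µg/kg, 873 to 1333 CPM at 10 µg/kg and 2608 to 3251 CPM at 30 µg/kg. The epithelial adhesion gene Epcam was at 1041 to 1312 CPM in every library. The ileal bile acid binding protein gene Fabp6 had 1 to 2 counts in vehicle, 2 to 5 counts at 10 µg/kg and 0 to 2 counts at 30 µg/kg, but 390 to 556 counts at 3 µg/kg, and the ileal hormone gene Fgf15 had at most 3 counts outside the 3 µg/kg group. Of the other 3 genes on the ileum list, Slc10a2 had 93 to 218 counts at 3 µg/kg and 8 to 51 counts elsewhere, whereas the bile acid transporter genes Slc51a and Slc51b averaged at least 107 and 71.9 CPM in every group. The 10 µg/kg group also stood apart. Car1, a carbonic anhydrase gene of colon epithelium, had 714 to 857 counts in it and 0 in all other libraries, and Aqp8 and Hoxb13, also on the colon list, had 65 to 79 and 5 to 16 counts in it and at most 15 and 3 elsewhere. All 6 smooth muscle genes had lower estimates at 10 µg/kg than in vehicle (median -1.99 on the log2 scale, 6 with an unadjusted p under 0.05, 0 called by edgeR or limma-voom and 1 by DESeq2). The vehicle group differed too. The 7 genes of a pancreatic acinar cell list summed to 6.04 to 7.36 CPM in vehicle and 0 to 0.117 CPM at 3 µg/kg. They summed to 1.78 to 2.25 CPM at 10 µg/kg and 0.274 to 1.42 CPM at 30 µg/kg. Of the 2 tested, edgeR called 2 lower at 3 and at 30 µg/kg and 0 at 10 µg/kg. Position along the intestine or the tissue collected cannot be told apart from dose at 3, 10 or 30 µg/kg. Within the 3 µg/kg group, replicate 1 was the lowest library for all 7 members. Calls that depend on it are given with and without it, whereas correlations are given only with it.

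**Figure D1:**
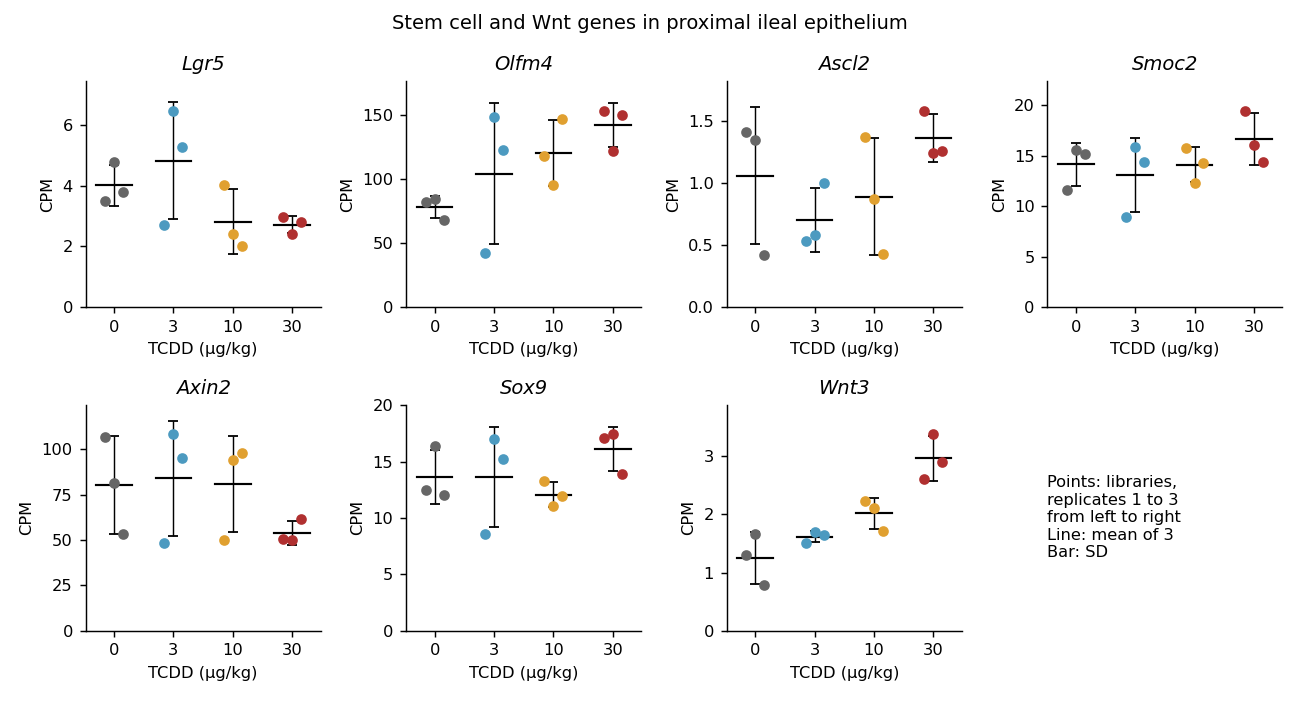
CPM (y axis, from 0, a separate scale for each gene) of the 7 stem cell and Wnt genes at 0, 3, 10 and 30 µg/kg TCDD (x axis). Points are libraries, lines are means and bars are SD of 3 libraries; Wnt3 at 30 µg/kg sits at 2.60 to 3.38 CPM, above all other libraries, and replicate 1 of 3 µg/kg is the lowest point of its group for each gene.

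Transcript levels between genes were compared per kb of exon. Olfm4 was the most abundant member in every library, at 14.2 to 51.9 CPM per kb, followed by Axin2 at 8.80 to 19.7 CPM per kb. Sox9 was the third at 2.08 to 4.21 CPM per kb and Smoc2 the fourth at 1.28 to 2.80 CPM per kb, and this order of 4 genes held within each of the 12 libraries. Ascl2, Wnt3 and Lgr5 were the lowest. In vehicle they averaged 0.652 ± 0.341, 0.407 ± 0.143 and 0.391 ± 0.0650 CPM per kb (SD, n = 3), and their ranges overlapped, so their order was not resolved there. At 30 µg/kg, Wnt3 averaged 0.963 ± 0.127 and Ascl2 0.839 ± 0.118 CPM per kb, with overlapping libraries, while Lgr5 at 0.265 ± 0.0281 CPM per kb lay below both in each library.

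Wnt3, a secreted ligand that starts canonical Wnt signaling (chr11:103774150-103817957), was the member called in the fit of all libraries, at 30 µg/kg and over the dose range. It had 1.30, 1.67 and 0.788 CPM in vehicle and 1.51, 1.69 and 1.64 CPM at 3 µg/kg. It reached 2.23, 2.1 and 1.72 CPM at 10 µg/kg and 2.60, 3.38 and 2.90 CPM at 30 µg/kg. Every library of 30 µg/kg was above every other library, and every library of 10 µg/kg was above every vehicle library. Wnt3 increased 2.33-fold at 30 µg/kg (log2 change 1.22 ± 0.27 SE, edgeR BH-adjusted p = 0.0206), and the slope over the dose rank amounted to a log2 change of 1.2 ± 0.25 SE over the whole range (edgeR BH-adjusted p = 0.0133). At 10 µg/kg it differed from vehicle by 0.68 ± 0.28 SE on the log2 scale and did not pass the test (edgeR BH-adjusted p = 0.271). Nor did 3 µg/kg, where the difference was 0.36 ± 0.28 SE (edgeR BH-adjusted p = 0.658). These levels rested on 15 to 53 counts per library. The call at 30 µg/kg was lost without vehicle replicate 3 (edgeR BH-adjusted p = 0.0657), without 30 µg/kg replicate 2 (0.0690), without 30 µg/kg replicate 3 (0.0564) and in a fit of only the 2 groups (0.0721). The call for the dose slope was lost only without 30 µg/kg replicate 2 (edgeR BH-adjusted p = 0.0513), and the log2 change stayed between 0.98 and 1.5 at 30 µg/kg in all 19 alternatives.

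Paneth cell genes rose at the same dose as Wnt3. Of 9 genes of the Paneth list (lysozyme, Mmp7, Itln1, Ang4 and 5 defensins), all were tested and 8 were called higher at 30 µg/kg. The list median was 1.57 on the log2 scale. DESeq2 and limma-voom called 9, and without vehicle replicate 3 the count was 5. Their summed level was 744 to 1133 CPM in vehicle, 727 to 1818 CPM at 3 µg/kg, 1131 to 1510 CPM at 10 µg/kg and 2315 to 3252 CPM at 30 µg/kg, and none of the 9 was at 0 in any group. Over the 12 libraries the Pearson correlation of log2 Wnt3 with the log2 summed level was 0.85, beside 0.87 with the enteroendocrine list and 0.84 with the AhR targets, all descriptions of points that share library, dose and depth. The part of Paneth cell number in the Wnt3 result was not tested, and in scrapings more cells of a type and more RNA per cell cannot be told apart.

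**Figure D2:**
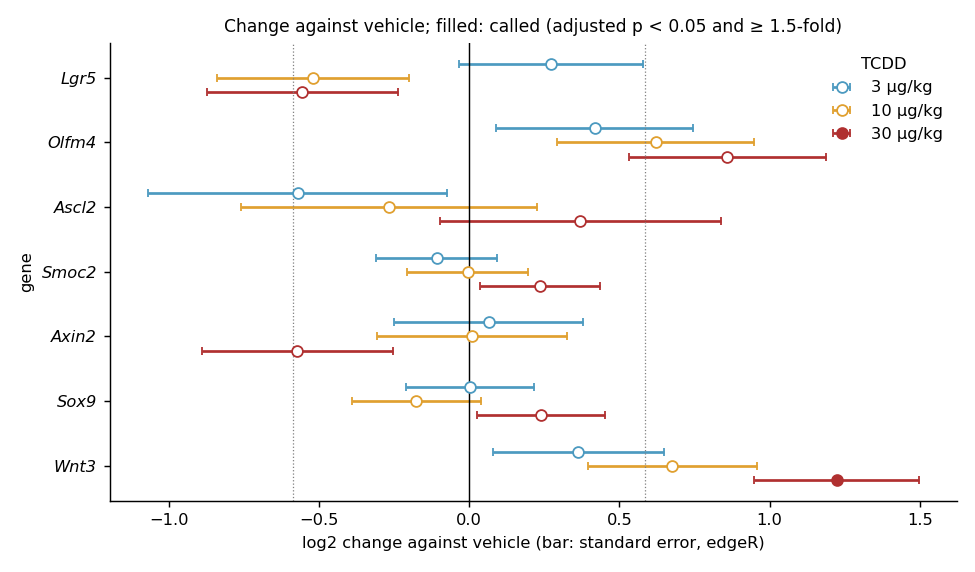
Log2 change against vehicle (x axis, edgeR estimate with its standard error as bar) for each of the 7 genes (y axis) at 3, 10 and 30 µg/kg TCDD. Dotted lines mark a 1.5-fold change and a filled point marks a call, which only Wnt3 at 30 µg/kg received, at 1.22.

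Lgr5, the R-spondin receptor that defines crypt base columnar stem cells (chr10:115450311-115587780), had 3.50, 4.77 and 3.78 CPM in vehicle and 2.72, 6.48 and 5.28 CPM at 3 µg/kg. It had 4.03, 2.39 and 2.02 CPM at 10 µg/kg and 2.96, 2.40 and 2.79 CPM at 30 µg/kg. All libraries of 30 µg/kg lay below all vehicle libraries, while those of 3 µg/kg lay on both sides and 1 library of 10 µg/kg lay within the vehicle range. Lgr5 nevertheless did not pass the test at 30 µg/kg (log2 change -0.56 ± 0.32 SE, edgeR BH-adjusted p = 0.337), and the slope over dose gave a log2 change of -0.74 ± 0.33 SE (edgeR BH-adjusted p = 0.226). Adjusted p-values at 30 µg/kg lay between 0.197 and 0.602 over 19 alternatives. Genes of some cell types outside the epithelium had lower estimates in the same comparison. T cell genes did not, with 5 of 7 estimates positive, 2 negative and 2 called higher by edgeR. All 6 B and plasma cell genes had a negative log2 change at 30 µg/kg (median -1.93 on the log2 scale, 5 with an unadjusted p under 0.05, 0 called by edgeR or limma-voom and 3 by DESeq2), with a summed level of 107 to 302 CPM in vehicle and 105 to 127 CPM at 30 µg/kg and none at 0 in any group. The 6 tested fibroblast genes also had negative estimates (median -0.37, 0 with an unadjusted p under 0.05). Over the 12 libraries log2 Lgr5 had a correlation of 0.75 with the B and plasma cell list and 0.67 with the fibroblast list, a description. Beside these stood -0.65 with the AhR targets, 0.63 with the reserve and regenerative stem cell genes, -0.60 with the T cell list and -0.55 with the goblet list. The part of any of these cells in the Lgr5 values was not tested.

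Axin2, a scaffold of the destruction complex that β-catenin induces as negative feedback (chr11:108920349-108950783), is a widely used readout of Wnt signaling. It had 107, 81.2 and 53.1 CPM in vehicle and 48.5, 108 and 95.1 CPM at 3 µg/kg. It had 50.1, 94.3 and 97.9 CPM at 10 µg/kg and 50.6, 49.9 and 61.5 CPM at 30 µg/kg. The groups overlapped, and each of the 3 lower groups held 1 library near the level of 30 µg/kg and others well above it. At 30 µg/kg Axin2 differed from vehicle by -0.57 ± 0.32 SE on the log2 scale (edgeR BH-adjusted p = 0.320), beside 0.06 at 3 µg/kg and 0.0082 at 10 µg/kg. Circadian clock phase varied across the libraries in parallel. A clock score (the mean z of 8 genes of the Dbp phase minus that of 4 genes of the Bmal1 phase) was positive in 6 libraries and negative in 6, and its correlation with log2 Axin2 was -0.83 over the 12 libraries, a description. Axin2 averaged 67.2 CPM in the vehicle libraries with a positive score and 107 CPM in the one with a negative score. The corresponding values were 48.5 and 102 CPM at 3 µg/kg, 50.1 and 96.1 CPM at 10 µg/kg, and 50.2 and 61.5 CPM at 30 µg/kg. With the score as a covariate the log2 change at 30 µg/kg was -0.54 with an edgeR BH-adjusted p of 0.0322, which remained below the 1.5-fold threshold for a call, and the range over 19 alternatives was 0.0322 to 0.636.

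Ascl2, a Wnt-induced transcription factor of the stem cell program (chr7:142966829-142969264), had 1.41, 1.34 and 0.420 CPM in vehicle and 0.528, 0.584 and 0.998 CPM at 3 µg/kg. It had 1.37, 0.871 and 0.429 CPM at 10 µg/kg and 1.58, 1.24 and 1.26 CPM at 30 µg/kg. It rested on only 7 to 31 counts per library, and the groups overlapped in every comparison tested. Libraries of 30 µg/kg lay above those of 3 µg/kg, a pair that was not tested. At 30 µg/kg the difference from vehicle, 0.37 ± 0.47 SE on the log2 scale, did not pass the test (edgeR BH-adjusted p = 0.699).

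Sox9, a Wnt-responsive transcription factor of crypt progenitors and Paneth cells (chr11:112782224-112787760), had 12.5, 16.4 and 12.0 CPM in vehicle and 8.60, 17.0 and 15.3 CPM at 3 µg/kg. It had 13.3, 11 and 11.9 CPM at 10 µg/kg and 17.1, 17.4 and 13.9 CPM at 30 µg/kg. The libraries of 30 µg/kg overlapped those of vehicle but lay above those of 10 µg/kg. Neither difference passed the test, with log2 estimates of 0.24 ± 0.21 SE against vehicle (edgeR BH-adjusted p = 0.557) and 0.42 ± 0.22 SE against 10 µg/kg (edgeR BH-adjusted p = 0.295).

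Olfm4, a secreted glycoprotein abundant in crypt base columnar cells (chr14:79984081-80023139), had 82.4, 84.5 and 68.1 CPM in vehicle and 42.1, 148 and 123 CPM at 3 µg/kg. It had 118.5, 95.4 and 147 CPM at 10 µg/kg and 154, 122 and 150.2 CPM at 30 µg/kg. Libraries of both higher doses lay above all vehicle libraries, whereas replicate 1 of 3 µg/kg was the lowest of all 12. The log2 change was 0.42 ± 0.33 SE at 3 µg/kg (edgeR BH-adjusted p = 0.661), 0.62 ± 0.33 SE at 10 µg/kg (0.373) and 0.86 ± 0.33 SE at 30 µg/kg (0.150), so no dose passed the test in the fit of all libraries. Without replicate 1 of 3 µg/kg, which enters the shared estimate of the spread, Olfm4 was called at 30 µg/kg with an unchanged log2 change of 0.86 (edgeR BH-adjusted p = 0.00548) and at 3 µg/kg with a log2 change of 0.79 (edgeR BH-adjusted p = 0.0455). Without the whole 3 µg/kg group it was called at 30 µg/kg (edgeR BH-adjusted p = 0.00824) and for the dose slope (0.0112). Adjusted p-values at 30 µg/kg ranged from 0.00548 to 0.331 over 19 alternatives.

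Cell cycle genes had higher estimates in the same comparison. All 12 genes of the proliferation list had a positive log2 change at 30 µg/kg (median 0.54), yet edgeR called 0 of them, 7 had an unadjusted p under 0.05, and DESeq2 and limma-voom called 0. Their summed level was 293 to 346 CPM in vehicle, 260.1 to 543 CPM at 3 µg/kg, 414 to 543 CPM at 10 µg/kg and 375 to 520.1 CPM at 30 µg/kg, and none of the 12 was at 0 in any group. Over the 12 libraries log2 Olfm4 had a correlation of 0.88 with this list, 0.99 with the other crypt base stem cell genes, 0.90 with the other Wnt targets and 0.81 with the Paneth list, again a description of points that share library and depth. Replicate 1 of 3 µg/kg, the lowest library for Olfm4 and for the proliferation sum (260.1 CPM), is among these points. The part of cell number or cell division in the Olfm4 values was not tested.

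Smoc2, a secreted calcium-binding matrix protein expressed in Lgr5-positive cells (chr17:14279506-14404790), had 11.6, 15.6 and 15.2 CPM in vehicle and 8.91, 15.9 and 14.4 CPM at 3 µg/kg. It had 15.7, 12.3 and 14.3 CPM at 10 µg/kg and 19.5, 16.0 and 14.4 CPM at 30 µg/kg. The groups overlapped in every comparison, and 30 µg/kg differed from vehicle by 0.24 ± 0.20 SE on the log2 scale (edgeR BH-adjusted p = 0.535). Fibroblasts, which also express matrix genes, were present at a low level. The 8 genes of the fibroblast list summed to 73.7 to 138 CPM in vehicle and 60.9 to 92.7 CPM at 30 µg/kg, with none at 0 in any group. Of the 6 that were tested edgeR called 0 at 30 µg/kg (0 with an unadjusted p under 0.05, and 0 called by DESeq2 or limma-voom). At 10 µg/kg the list summed to 27.3 to 70.8 CPM, with a median log2 change of -0.95 against vehicle. There 4 of 6 had an unadjusted p under 0.05, with 0 called by edgeR or limma-voom and 1 lower by DESeq2.

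Across the 7 members, the comparison of 3 µg/kg with vehicle called 0 in edgeR (0 with an unadjusted p under 0.05), beside 0.228% of all genes tested and 0.0569% called higher. At 10 µg/kg 0 were called (1 with an unadjusted p under 0.05), beside 0.613% of all genes and 0.487% called higher. At 30 µg/kg 1 was called higher and 0 lower, with 2 under an unadjusted p of 0.05, beside 3.97% of all genes called, 3.08% higher and 0.891% lower. The comparison of 30 with 10 µg/kg called 0 members (0 with an unadjusted p under 0.05) against 2.77% of genes, 2.17% higher and 0.607% lower. The slope over dose called 1, which was higher, against 3.29% of genes and 2.53% higher. Of all 15823 genes, 1800 had an unadjusted p under 0.05 for the lowest dose, 2511 for the middle and 3422 for the highest. For the highest against the middle dose the number was 3324. DESeq2 and limma-voom called the same numbers of members in all 5 tests. Groups did not overlap between 30 µg/kg and vehicle for 3 of the 7 members, 2 higher (Wnt3 and Olfm4) and 1 lower (Lgr5), where 14.2% of all genes were higher in every library and 12.5% lower in every library. Between 10 µg/kg and vehicle 2 members did not overlap (Wnt3 and Olfm4, higher), beside 11.92% of all genes higher and 10.99% lower. Between 30 and 10 µg/kg 2 did not overlap (Wnt3 and Sox9, higher), beside 14.67% of all genes higher and 13.49% lower. The median log2 change of the 7 members at 30 µg/kg was 0.24, beside -0.016 for all genes tested. Of the 7 estimates 5 were positive and 2 negative.

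The rest of the Wnt pathway was examined with lists of ligands, receptors, inhibitors and targets. Of 13 genes for Wnt ligands, R-spondins and their secretion, 7 were tested and edgeR called 0 at any dose against vehicle, with 0, 2 and 1 below an unadjusted p of 0.05 (3, 10 and 30 µg/kg in turn). Rspo2 had no count in any TCDD library and at most 1 in vehicle. Rspo1 and Rspo3 had at most 5 and 7 counts in any library. At such levels the 0 calls do not describe the R-spondins. All 16 receptors and transducers were tested and 0 were called at any dose (3, 4 and 6 with an unadjusted p under 0.05), and the list median at 30 µg/kg was -0.057 on the log2 scale. Ctnnb1, which encodes β-catenin, had 555 CPM at 30 µg/kg and 579 CPM in vehicle (log2 change -0.062 ± 0.082 SE, edgeR BH-adjusted p = 0.715). Of 15 inhibitors and destruction complex genes, 12 were tested and 0 were called (0, 1 and 0 with an unadjusted p under 0.05). Estimates at 30 µg/kg on the log2 scale were 0.20 ± 0.16 SE for Rnf43 and -0.061 ± 0.14 SE for Znrf3, the paired ubiquitin ligases that remove Frizzled from the membrane, and neither passed the test (edgeR BH-adjusted p = 0.485 and 0.858). DESeq2 and limma-voom called 0 genes of these 3 lists against vehicle.

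All 7 other Wnt targets of the crypt (Ephb2, Ephb3, Cd44, Myc, Ccnd1, Sp5 and Bambi) had a positive log2 change at 30 µg/kg (median 0.38), yet edgeR called 0 against vehicle, 3 had an unadjusted p under 0.05, and DESeq2 and limma-voom each called 1. Myc, a transcription factor that drives cell growth, had 16.1 to 20.1 CPM in vehicle, 8.75 to 19.0 CPM at 3 µg/kg, 13.5 to 19.2 CPM at 10 µg/kg and 27.9 to 31.2 CPM at 30 µg/kg. Its libraries of 30 µg/kg lay above all others. Against 10 µg/kg the increase was called (log2 change 0.94 ± 0.22 SE, edgeR BH-adjusted p = 0.0342), and that call was lost in 7 of 19 alternatives, 5 of them the omission of 10 µg/kg replicate 2 or 3 or of any 30 µg/kg replicate, with adjusted p up to 0.148. Against vehicle it missed the threshold (log2 change 0.77 ± 0.22 SE, edgeR BH-adjusted p = 0.0588) and passed it in 7 of 19 alternatives, among them the fits without 3 µg/kg replicate 1 (0.00588) and without the 3 µg/kg group (0.00858). Ephb2, the ephrin receptor that positions cells along the crypt, differed by 0.26 ± 0.13 SE on the log2 scale (edgeR BH-adjusted p = 0.259).

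**Figure D3:**
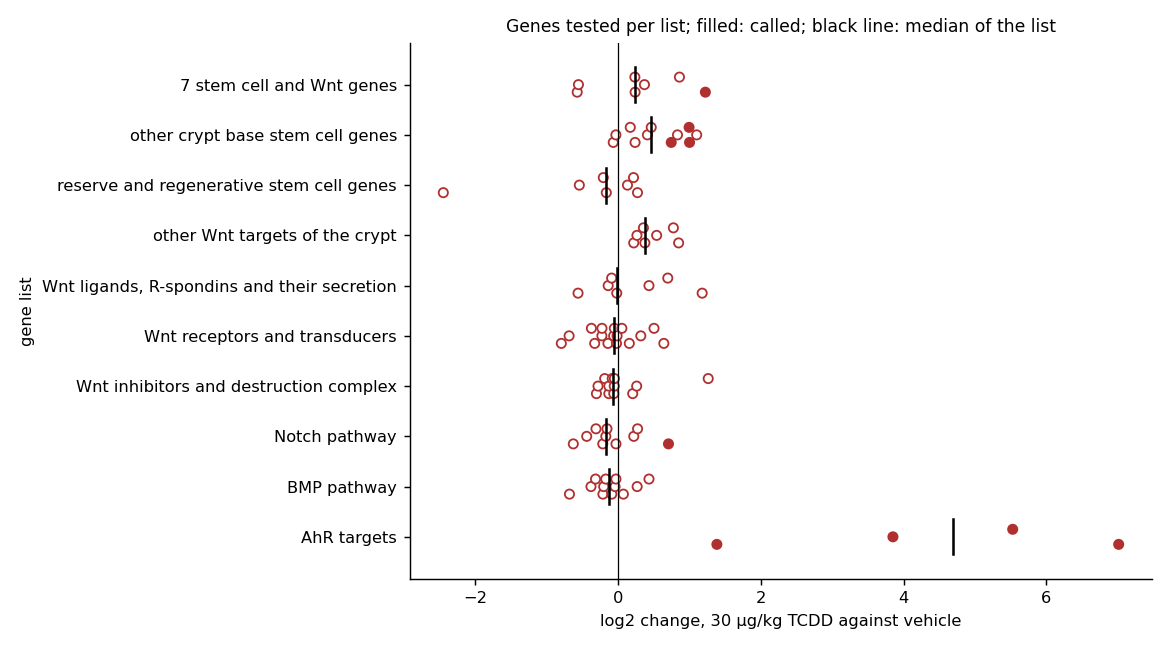
Log2 change at 30 µg/kg TCDD against vehicle (x axis) for each tested gene of 10 gene lists (y axis). Filled points are called genes and black lines are list medians, which lie at 0.24 for the 7 stem cell and Wnt genes, 0.46 for other crypt base stem cell genes and 4.69 for AhR targets.

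Other crypt base stem cell genes gave more calls. Of 12 on the list 11 were tested, and 30 µg/kg raised 3 and lowered 0 of them past the thresholds. Estimates were positive for 9, and their median was 0.46 on the log2 scale. Soat1, which esterifies cholesterol, had 16.4 to 20.7 CPM in vehicle and 34.5 to 37.6 CPM at 30 µg/kg (log2 change 0.99 ± 0.16 SE, edgeR BH-adjusted p = 0.0026). Cdca7, a MYC-responsive gene of dividing cells, had 13.8 to 13.9 CPM in vehicle and 22.3 to 24 CPM at 30 µg/kg (log2 change 0.74 ± 0.17 SE, edgeR BH-adjusted p = 0.0203). Aqp4, a water channel, had 5.92 to 9.81 CPM in vehicle and 15.8 to 17.2 CPM at 30 µg/kg (log2 change 1.00 ± 0.25 SE, edgeR BH-adjusted p = 0.0327). These 3 genes did not overlap with vehicle and were also called for the slope over dose. The call of Soat1 held in every alternative, that of Cdca7 was lost without vehicle replicate 2 or 3 or 30 µg/kg replicate 1 or 3 (edgeR BH-adjusted p up to 0.0710), and that of Aqp4 was lost without any single library of the 2 groups (edgeR BH-adjusted p up to 0.0942). The list count was 1 without vehicle replicate 2 or 3 or 30 µg/kg replicate 1 or 3, and 5 with DESeq2 or limma-voom. Igfbp4, an insulin-like growth factor binding protein, was called in the comparison of 30 with 10 µg/kg (log2 change 1.06 ± 0.19 SE, edgeR BH-adjusted p = 0.00876). The 10 µg/kg group in this comparison and that of Myc is the one in which Car1, Aqp8 and Hoxb13 were raised. The colon list as a whole summed to 353 to 375 CPM there and 341 to 376 CPM in vehicle. The part of this group difference in the 2 calls was not tested. The Igfbp4 call was lost without 10 µg/kg replicate 2 (edgeR BH-adjusted p = 0.0586), and its level of 9.80 to 12.2 CPM at 30 µg/kg lay above the 4.43 to 5.69 CPM at 10 µg/kg and the 7.55 to 8.93 CPM in vehicle. The list of reserve and regenerative stem cell genes (8 genes, 7 tested, among them Bmi1, Hopx and Clu) had 0 called at 30 µg/kg, 1 with an unadjusted p under 0.05, and 0 by DESeq2 or limma-voom.

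Pathways that act beside Wnt in the crypt were also counted. Of 10 Notch pathway genes, all tested, edgeR and limma-voom called 1 higher at 30 µg/kg and DESeq2 called 1 higher and 1 lower. The gene called by edgeR was Atoh1, the transcription factor that commits progenitors to secretory lineages, with 14.7 to 19.9 CPM in vehicle, 14.5 to 18.3 CPM at 3 µg/kg, 17.9 to 19.1 CPM at 10 µg/kg and 26.6 to 30.6 CPM at 30 µg/kg. Its libraries at 30 µg/kg were above all others (log2 change against vehicle 0.71 ± 0.13 SE, edgeR BH-adjusted p = 0.00513). Hes1, the Notch target that represses Atoh1, differed by 0.22 ± 0.21 SE on the log2 scale (edgeR BH-adjusted p = 0.596). Of 13 BMP pathway genes 12 were tested and edgeR called 0 at 30 µg/kg, 3 had an unadjusted p under 0.05, and DESeq2 and limma-voom called 0. All 4 AhR targets were called at 30 µg/kg, with log2 changes from 1.38 for Tiparp to 7.01 for Cyp1a1.

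Markers of the other secretory lineages were counted at 30 µg/kg, where 3.97% of all genes tested were called. Of the goblet cell list 4 of 8 genes were called higher, with a summed level of 12772 to 16703 CPM in vehicle and 16431 to 17866 CPM at 30 µg/kg, ranges that overlap. Of the enteroendocrine list 6 of 10 genes were called higher, with a summed level of 175 to 199 CPM in vehicle and 263 to 307 CPM at 30 µg/kg. Of 7 tested tuft cell genes edgeR called 0, with 4 positive and 3 negative estimates (2 with an unadjusted p under 0.05, 0 called by DESeq2 or limma-voom), and the 8 genes of the list summed to 49.97 to 70.6 CPM in vehicle and 54.0 to 85.4 CPM at 30 µg/kg. No gene of the 3 lists was at 0 in any group. Their part in the values of single members was not tested.

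Correlations of log2 CPM over the 12 libraries, which share library and dose and are given as a description, ran from -0.34 between Lgr5 and Wnt3 to 0.85 between Smoc2 and Sox9. Olfm4 was alike to Smoc2 (0.75) and Sox9 (0.70), and its correlation with Lgr5 was 0.049. Within groups, after subtraction of each group's mean, all pairs of members had positive values, from 0.011 between Smoc2 and Wnt3 to 0.87 between Smoc2 and Sox9. Values were 0.69 between Lgr5 and Olfm4, 0.81 between Lgr5 and Sox9 and 0.35 between Lgr5 and Wnt3. Replicate 1 of 3 µg/kg, the lowest of its group for all 7 members, entered all of these values and moves every pair in the positive direction. The correlations were not computed without it. Among 10405 other protein-coding genes with a mean count of at least 50, those most alike to Olfm4 were Uhrf1 (0.98), which maintains DNA methylation, Ticrr (0.97), which starts DNA replication, and Ruvbl2 (0.97), a chromatin ATPase. Those most alike to Smoc2 were the DNA repair gene Parp1 (0.97), the ion channel gene Piezo1 (0.93) and the replicative helicase subunit gene Mcm3 (0.92). For Wnt3 they were the innate immune sensor gene Nlrp6 (0.93), 5330417C22Rik (0.92) and the receptor tyrosine kinase gene Kit (0.91), chosen from 10406. Kit itself was called at 10 µg/kg (log2 change 0.95, edgeR BH-adjusted p = 0.0259) and at 30 µg/kg (log2 change 1.12, edgeR BH-adjusted p = 0.00211). For Axin2 they were Pxylp1 (0.93), Lrrc66 (0.92) and Sec22b (0.92), and for Sox9 they were Irak1 (0.90), Lrig1 (0.89), a stem cell gene that restrains growth factor receptors, and Lancl1 (0.89). The highest values were lower for Lgr5 (Slc25a17 0.82, Nhs 0.79 and Igfbp3 0.79) and for Ascl2 (Amigo1 0.80, Mrps24 0.78 and Celf3 0.77), both of which had few counts.

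**Figure D4:**
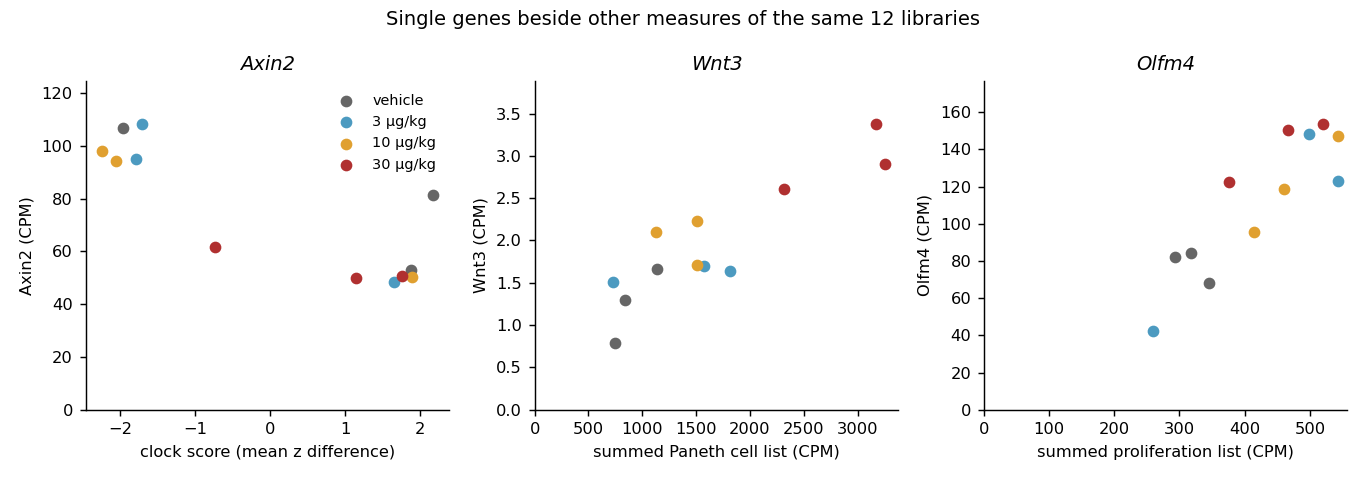
CPM of Axin2 against the clock score, of Wnt3 against the summed CPM of the Paneth cell list and of Olfm4 against the summed CPM of the proliferation list, with 1 point per library colored by group. Within each group the mean of Axin2 is lower for a positive than for a negative clock score, although single libraries of different groups overlap. The points of 30 µg/kg lie at the upper right for Wnt3.

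Genes that overlap members could share reads, because the strand setting of the counting is not given in the sources used here. A930009A15Rik, antisense to Lgr5, and Gm6999, on the strand of Olfm4, had 0 counts in every library, and Gm11670, antisense to Axin2, had 0 to 3. The partner antisense to Smoc2, 4930474M22Rik, was not analysed here.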

How the data were processed

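Per the submitters' processing notes, reads were handled with FastQC 0.11.3, Trimmomatic 0.33, TopHat2 2.1.0, SAMtools 1.2.0 and HTSeq 0.6.1 against GRCm38. The authors deposited raw counts of reads per Ensembl gene, 1 file per library and with no normalisation. Reads without a gene (25.0% to 30.1% of entries), aligned to more than 1 place (31.4% to 38.8%) or matching several genes (0.414% to 0.728%) stand in separate entries of the deposited count files and entered neither library sizes nor tests. The 30 µg/kg libraries stood apart from all others in the first 2 shares. Without a gene were 25.00% to 25.42% at 30 µg/kg and 27.98% to 30.07% elsewhere. Aligned to more than 1 place were 36.25% to 38.79% at 30 µg/kg and 31.43% to 34.64% elsewhere. This library difference cannot be told apart from dose, and its part in the results at 30 µg/kg was not tested. Symbols, positions and exon lengths came from GENCODE M21 (GRCm38), which matched 45229 of the 46078 genes.

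Counts were tested with edgeR 4.0.16 in R 4.3.3, in 1 quasi-likelihood fit of 4 groups over all 12 libraries, after filterByExpr and TMM scaling. Benjamini-Hochberg adjustment ran over all 15823 genes, and a gene was called at an adjusted p under 0.05 and a change of at least 1.5-fold. Standard errors were derived from the F statistic, a second fit gave the slope over dose rank, and log2 CPM used a prior count of 2. The floor of 3 counts covers counting error only. The functions were tested on simulated data. The alternatives were other scalings and filters, DESeq2 1.42.0, limma-voom 3.58.1, clock score or read index as covariate, removal of length and GC trends, fits of only the compared groups and omission of each replicate. Omission of the 3 µg/kg group, or of its replicate 1 from the other comparisons, was added after seeing the data. The members and gene lists were chosen with earlier results of these data known. Genes named are the members, called genes of the Wnt, crypt, stem cell, Notch, BMP and AhR lists, 6 genes named called or not (Rnf43, Znrf3, Ctnnb1, Myc, Ephb2 and Hes1), and the 3 protein-coding genes most alike to each member. Cyp1a1, Epcam, Fabp6 and Fgf15 serve as tissue and treatment checks. The index sequences and dose are crossed, with each of 3 indexes once per group.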

Additional observations from a re-analysis of the deposited data

How the results depend on the processing

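No paired analysis was possible because the labels give no replicate numbers. Log2 changes close to 0 took the other sign under some settings. At 3 µg/kg Sox9 gave -0.0069 with median-of-ratios scaling, -0.019 with upper-quartile scaling, -0.0053 with no filter, -0.0079 with DESeq2, -0.021 with limma-voom, -0.0047 with the clock score and -0.0032 with the read index. Axin2 gave -0.25 at 3 µg/kg and -0.34 at 10 µg/kg with the clock score, -0.012 and -0.061 with the read index, and -0.012 at 10 µg/kg with upper-quartile scaling. Smoc2 at 10 µg/kg gave 0.033 with the clock score, 0.0050 with the read index, 0.0036 with length and GC trends removed and 0.0069 without the 3 µg/kg group. Lgr5 at 30 against 10 µg/kg gave 0.047 with limma-voom and 0.060 with those trends removed. Leaving out 1 library gave -0.19 to 0.24 for Sox9, -0.18 to 0.34 for Axin2, -0.28 to 0.098 for Smoc2 and -0.0039 to 0.55 for Lgr5 at 3 µg/kg. At 10 µg/kg it gave -0.13 to 0.087 for Smoc2, -0.22 to 0.27 for Axin2 and -0.72 to 0.090 for Ascl2. At 30 µg/kg it gave -0.0035 to 0.61 for Ascl2 and -0.13 to 0.0032 for Znrf3, and -0.23 to 0.31 for Lgr5 against 10 µg/kg. None of these values was called.

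The number of members called at 30 µg/kg was 2 with no filter, 2 without the 3 µg/kg group and 0 to 2 without 1 library, and for the slope it was 2 without that group and 0 to 1 without 1 library. In the fit of only the 2 groups 1 member was called, Olfm4 in place of Wnt3. At 3 µg/kg it was 0 to 1, the latter without replicate 1 of that group. Over all genes, calls at 3 µg/kg went from 36 to 71 with no filter, 84 with DESeq2, 18 with the read index, 6 with only the 2 groups and 19 to 164 without 1 library. Calls at 10 µg/kg went from 97 to 215, 262 and 59 with the same first 3 settings and 45 to 194 without 1 library. Without 1 library, 30 against 10 µg/kg gave 200 to 551 and the slope 288 to 623. The cause was not tested. Ascl2 and Wnt3 rested on 7 to 53 counts per library, and no detection limit was computed for them.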
